A study of Homo sapiens with 24 samples.

Results

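LCL521, a pro-drug that inhibits the lysosomal enzyme acid ceramidase (ASAH1), was compared with no drug in polyploid giant cancer cells (PGCC) of the PPC1 prostate cancer line. The comparison used 12 of the 24 RNA-seq libraries, 6 labelled PGCC and 6 labelled PGCC_LCL. Cells of both conditions received 8 Gy on day 2, were harvested on day 5 and were captured on a 20 micron filter for their size. PGCC_LCL cells also received 5 µM LCL-521 for 5 h before harvest. The methods of the study place the exposure on day 3, and its discussion has the PGCC collected 3 days after irradiation. The sample descriptions name no vehicle for the plates without drug. The experiment was repeated in 6 runs with all 4 conditions handled in parallel, so each PGCC_LCL library has a PGCC library with the same number. The other 12 libraries, UT and UT_LCL, are parental cells that were neither irradiated nor filtered. UT_LCL cells received 5 µM LCL521 for 5 h, and UT cells received no drug. All cells come from 1 established line, and filtration by size yields an enriched, not a pure, population.

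Acid ceramidase cleaves ceramide in the lysosome into sphingosine and a fatty acid. Cholesterol taken up as LDL also leaves through the lysosome, with the help of NPC1, and cells read its level in the endoplasmic reticulum: when sterol is low, SREBP transcription factors escape the retention protein INSIG1 and raise the genes of sterol synthesis and LDL uptake. The lysosome surface carries the Rag GTPases, to which RRAGC belongs, and these tell the kinase MTOR and the transcription factors TFEB and TFE3 about nutrient supply.

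Of 14151 genes tested, 234 (1.65%) passed an adjusted p of 0.05 in the quasi-likelihood test of edgeR, blocked on the replicate number and adjusted after Benjamini and Hochberg. Higher with LCL521 were 153 genes (1.08%) and lower were 81 (0.572%). The changes were small: none of the 234 genes exceeded 2-fold and 4 exceeded 1.5-fold, with log2 fold changes between -0.57 and 0.97. The median size was 0.231 among the called genes and 0.064 among all genes tested. Direction was the same in all 6 pairs for 120 of the higher and 71 of the lower genes. The test that picked these genes was blocked on the same pairs, so these counts are no separate support. Protein-coding genes made up 224 of the 234 (95.73%), against 86.3% of all genes tested.

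These calls rest on the pairing of the libraries. Without the block INSIG1 alone passed, and the genes at an unadjusted p under 0.05 numbered 218 without it and 2030 with it. Leaving out replicate 1 left 140 genes, leaving out replicate 3 left 155 and leaving out replicate 5 left 136. Replicates 4 and 5 stood apart from the others in both conditions on the first principal component, which held 39.0% of the variance. Without them 129 genes passed, 108 of which were among the 234.

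**Figure D1:**
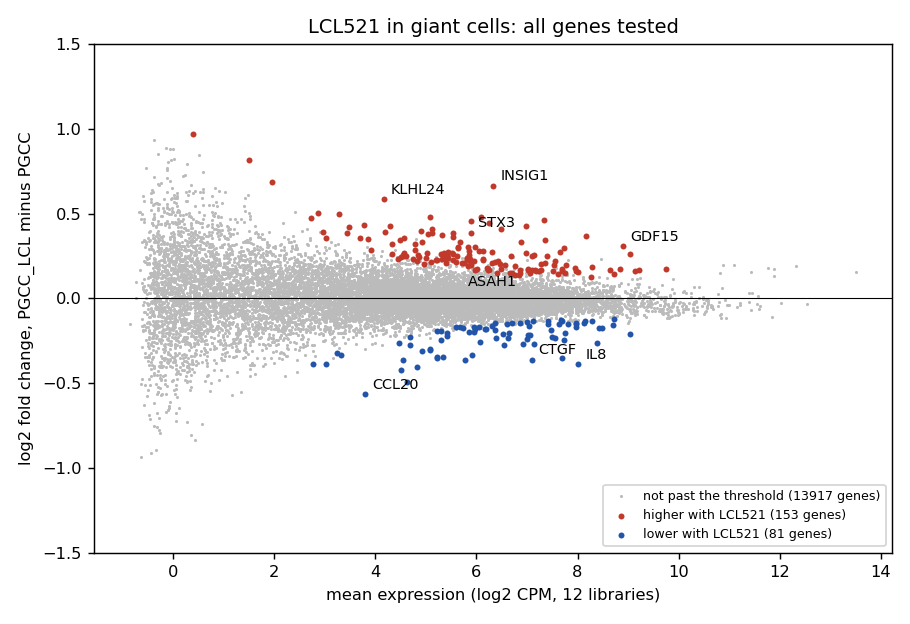
Each point is a gene, with its mean log2 CPM over the 12 giant-cell libraries on the x axis and its log2 fold change, PGCC_LCL minus PGCC, on the y axis. Red points (153) are higher and blue points (81) lower with LCL521 at an adjusted p under 0.05, grey points are not past it, and nearly all coloured points lie within 0.7 of 0.

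The PGCC libraries held 15483220 to 19590419 counts each and the PGCC_LCL libraries 15573469 to 19120559. Levels below are CPM, counts relative to the TMM-scaled library size, and 3 counts correspond to 0.153 to 0.194 CPM. KRT8, KRT18 and VIM marked the line in every library, with VIM between 465.1 and 610.5 CPM. Of the prostate lineage markers, KLK3, KLK2 and FOLH1 had 0 counts in all 12 libraries, and TMPRSS2 reached at most 2 counts, so the prostate origin of the line cannot be read from them. EPCAM had 3 to 17 counts. Markers of other cell types summed to 13.6 to 17.2 CPM in PGCC and 13.1 to 16.9 CPM in PGCC_LCL. The 26 mitotic genes were well expressed in both conditions and summed to 3069 to 3766 CPM in PGCC and 3211 to 3728 CPM in PGCC_LCL. Mitochondrially encoded genes held between 1.92% and 5.33% of counts. In such bulk RNA, a fall in the number of cells of a type and a fall in RNA per cell cannot be told apart.

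The promoters of a few genes described below are shown first, because the letters that known regulators read are in them. Each is the 200 bases before the RefSeq start site (GRCh38.p14), 5′ to 3′ on the gene's strand. Capitals mark the searched motif: TCACGTGA in INSIG1, CACGTG in RRAGC, FNIP1 and NEU1, and GGAATG in CTGF. CACGTG is the E-box core that TFEB, TFE3, MYC and SREBP proteins can bind, and GGAATG is the core letters of sites for TEAD factors, the partners of YAP. These 5 were picked because they are named below and hold the letters.
INSIG1: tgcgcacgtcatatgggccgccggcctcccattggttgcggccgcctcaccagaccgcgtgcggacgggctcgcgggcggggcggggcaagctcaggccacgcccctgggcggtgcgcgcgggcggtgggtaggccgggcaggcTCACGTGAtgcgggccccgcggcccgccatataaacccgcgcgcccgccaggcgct
RRAGC: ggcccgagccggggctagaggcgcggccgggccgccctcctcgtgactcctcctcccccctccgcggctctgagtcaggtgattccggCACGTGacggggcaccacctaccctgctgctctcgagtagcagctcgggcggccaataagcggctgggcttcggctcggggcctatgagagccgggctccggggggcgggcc
FNIP1: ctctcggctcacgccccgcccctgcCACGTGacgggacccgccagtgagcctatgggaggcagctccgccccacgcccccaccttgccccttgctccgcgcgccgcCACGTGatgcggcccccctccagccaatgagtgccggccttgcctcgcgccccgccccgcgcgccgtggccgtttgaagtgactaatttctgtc
NEU1: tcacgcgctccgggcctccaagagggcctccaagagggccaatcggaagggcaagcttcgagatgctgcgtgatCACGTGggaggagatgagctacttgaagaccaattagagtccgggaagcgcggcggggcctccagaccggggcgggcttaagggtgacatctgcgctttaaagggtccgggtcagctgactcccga
CTGF: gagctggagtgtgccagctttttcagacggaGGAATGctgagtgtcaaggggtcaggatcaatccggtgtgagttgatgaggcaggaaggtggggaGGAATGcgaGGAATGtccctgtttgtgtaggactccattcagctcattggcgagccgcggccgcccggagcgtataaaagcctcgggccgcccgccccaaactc

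The windows lie at chr7:155297678-155297877 on the plus strand for INSIG1, and on the minus strand at chr1:38859773-38859972 for RRAGC, chr5:131797018-131797217 for FNIP1, chr6:31862822-31863021 for NEU1 and chr6:131951373-131951572 for CTGF. The motif of INSIG1 begins 56 bases before the start site, and those of CTGF begin 169, 104 and 95 bases before it. A promoter of 300 bases, 250 before and 50 after the first listed start, was found for 10517 of the genes tested and 183 of the 234 called. CACGTG, searched on both strands, was in 22 of 118 promoters of genes higher with LCL521 (18.6%), in 4 of 65 of genes lower (6.15%) and in 1044 of the 10517 (9.93%). TCACGTGA, which contains CACGTG, was in 5 of the 118 (4.24%), in 0 of the 65 and in 1.86% of the 10517. The sterol element letters TCACNCCAC were in 2 of the 118 (1.69%), in 0 of the 9 matched promoters of called sterol synthesis genes and in 0.951% of the 10517. CACGTG was in 1 of those 9 sterol synthesis promoters. GGAATG was in 10 of the 65 promoters of genes lower with LCL521 (15.4%), in 6.78% of those higher and in 10.8% of the 10517. Of the 5 matched promoters of YAP and TEAD targets called lower, 2 held it, that of CTGF among them. The letters of the ATF4 element, TGATGNAA, were in 2.54% of promoters of the higher and 4.62% of the lower genes, against 1.82%. Those of the AP-1 element, TGANTCA, were in 7.63% and 9.23%, against 4.70%. Over all 27305 promoters of the table, the shares were 7.43% for CACGTG, 1.04% for TCACGTGA, 1.15% for TCACNCCAC, 14.0% for GGAATG, 3.67% for TGATGNAA and 7.76% for TGANTCA. These shares describe letters in a window, and no site was measured.

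The gene lists used below and their members were chosen with earlier results of these data known. Their counts describe the members, and no test was made on the lists. Over all genes tested, 1.65% passed, 1.08% higher and 0.572% lower, and 7132 of 14151 had a negative log2 fold change. Genes of cholesterol synthesis rose together. In the list of sterol synthesis enzymes, 13 of 21 tested members were higher with LCL521 and 0 were lower, with a median log2 fold change of 0.216 against -0.001 over all genes. MVK and MVD, which act in the mevalonate pathway, rose by 0.41 and 0.43 on the log2 scale. SQLE, the squalene epoxidase, had 115.3, 138.4 and 160.4 CPM (lowest, median, highest) in PGCC and 159.2, 180.1 and 227.9 CPM in PGCC_LCL. The conditions overlapped narrowly for this gene, and every pair rose. Its fold change was 1.38 (95% interval 1.28 to 1.48, edgeR adjusted p = 1.87e-05).

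MSMO1, a sterol C4-methyl oxidase, was at 39.6, 49.6 and 58.8 CPM in PGCC and 60.9, 64.7 and 83.2 CPM in PGCC_LCL. All treated libraries lay above all untreated ones, and the fold change was 1.37 (1.26 to 1.49, edgeR adjusted p = 4.20e-05). HMGCS1, which makes HMG-CoA, rose 1.27-fold and IDI1, the isopentenyl diphosphate isomerase, rose 1.23-fold. The remaining 7 called members rose by 0.17 to 0.50 on the log2 scale. The largest of these, FDPS at 0.496, was higher in 4 of 6 pairs (edgeR adjusted p = 0.0328). The next, HSD17B7 at 0.355, and the rest of the 7 were higher in all 6 pairs. Without replicates 4 and 5, 11 members of the list passed, and with a correction for gene length 15 did. Without the block, 0 passed.

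The sterol sensors and uptake genes moved the same way in 4 of 11 members, with 0 lower and a median log2 fold change of 0.135. Over all genes tested, 1.08% were called higher. Without replicates 4 and 5 there were also 4 calls, and the median was 0.076. INSIG1, which holds SREBP precursors in the endoplasmic reticulum and is itself an SREBP target, lies on chromosome 7 (hg19, 155089486 to 155101945). It measured 55.3, 61.1 and 71.6 CPM in PGCC and 80.3, 98.0 and 116.8 CPM in PGCC_LCL. The ranges did not overlap, although the rise in replicate 2 was 0.16 on the log2 scale and that in replicate 3 was 0.90. No other gene had a smaller p than INSIG1 (fold change 1.586, 1.452 to 1.733, edgeR adjusted p = 1.77e-06). STARD4, a carrier of sterol in the cytosol, rose 1.34-fold and was higher in 5 of 6 pairs. SREBF2, the SREBP that drives sterol genes, rose 1.12-fold in 6 of 6 pairs.

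**Figure D2:**
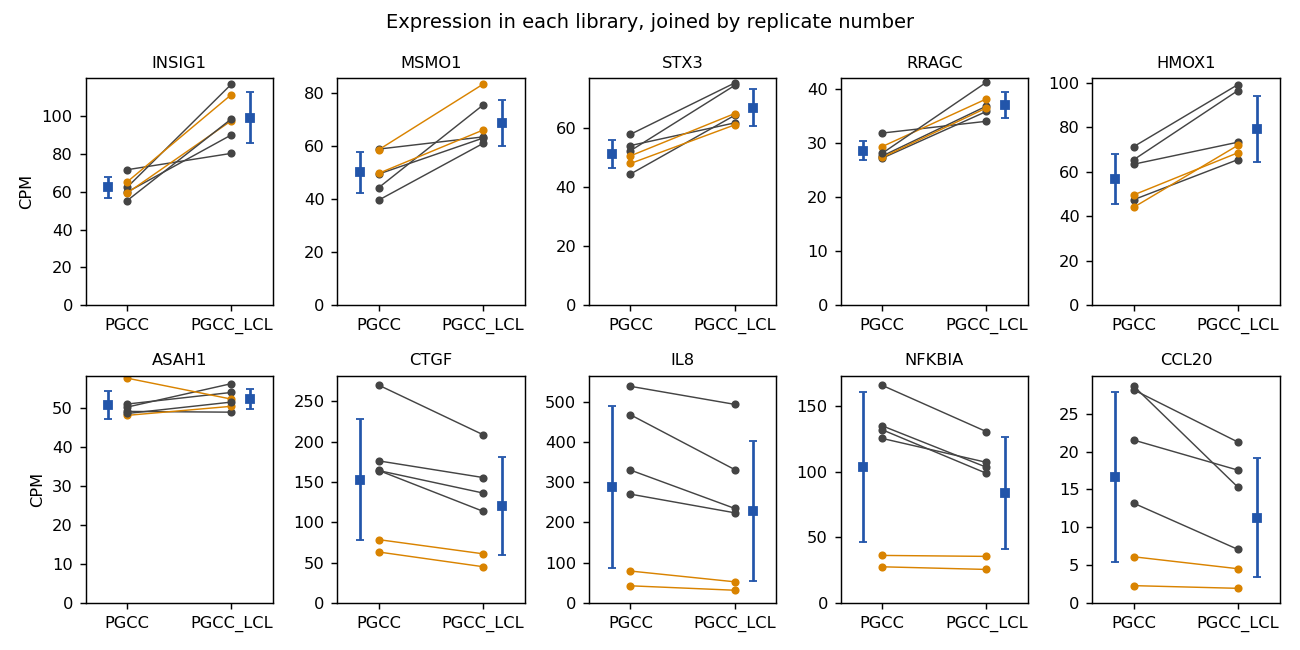
Each panel gives CPM of 1 gene in PGCC and PGCC_LCL, with a line per replicate number (orange, replicates 4 and 5) and blue squares with bars for the mean and SD of 6 libraries. INSIG1, MSMO1, STX3 and RRAGC rise without overlap of the conditions, ASAH1 is level, and CTGF, IL8, NFKBIA and CCL20 fall within pairs while replicates 4 and 5 lie far below the rest.

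Cholesterol trafficking genes moved in both directions, 2 of 19 members higher and 2 lower. Over all genes tested, 1.08% were called higher and 0.572% lower. NPC1, which exports cholesterol from the lysosome, rose 1.23-fold (1.16 to 1.30, edgeR adjusted p = 4.20e-05), from 161.8, 195.7 and 209.0 CPM to 202.6, 235.3 and 270.6 CPM. The ranges met between 202.6 and 209.0 CPM. TMEM97, a sterol-regulated binding partner of NPC1, rose 1.19-fold in 6 of 6 pairs. Lower were NCEH1, which hydrolyses cholesteryl esters, at 0.862 of its PGCC level, and CAV1, the caveolar coat protein, at 0.900. CAV1 did not pass without replicates 4 and 5. Of the fatty acid synthesis genes 4 of 16 rose: LPIN1, a phosphatidate phosphatase, by 1.21-fold, and SCD, FASN and ACLY by 1.10- to 1.13-fold. FASN and ACLY did not pass without replicates 4 and 5.

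The genes of the drug's own pathway gave no call. ASAH1 had 48.0, 49.6 and 57.6 CPM in PGCC and 48.9, 51.8 and 56.2 CPM in PGCC_LCL, so the ranges overlapped throughout, and the fold change was 1.03 (0.964 to 1.10, edgeR adjusted p = 0.735). Of 32 tested enzymes and regulators of ceramide and sphingolipids, 0 passed in edgeR's test, and the list median was 0.012 on the log2 scale. GBA2, a non-lysosomal glucosylceramidase, had the smallest p of the list with a log2 fold change of 0.14 (edgeR adjusted p = 0.151).

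Among genes of the lysosome, calls were few and, without a length correction, all were rises. Of all genes tested, 1.08% were called higher. Of 31 members of nutrient sensing at the lysosome, 3 rose, with a list median of 0.005. RRAGC, on chromosome 1 (hg19, 39303870 to 39325495), went from 27.2, 27.9 and 31.9 CPM to 34.1, 36.7 and 41.3 CPM. No treated library fell into the untreated range (fold change 1.30, 1.20 to 1.40, edgeR adjusted p = 0.000271). FNIP1 and FNIP2, partners of folliculin in the control of RagC, rose 1.26- and 1.20-fold, both in 6 of 6 pairs. FNIP2 did not pass without replicates 4 and 5.

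Lysosomal hydrolases and membrane proteins showed 2 calls among 38, NEU1, a sialidase (1.15-fold), and TMEM55B, a phosphoinositide phosphatase that acts in lysosome positioning (1.20-fold). With a correction for gene length, 2 members were higher and 1 was lower. The vacuolar ATPase, the proton pump of the lysosome, had 0 calls among 16 members, with ATP6V1C1 closest at a log2 fold change of 0.15 (edgeR adjusted p = 0.0534). Autophagy genes rose in 5 of 37 members, against 1.08% of all genes tested called higher, with a list median of 0.024. PLEKHM1, an adaptor for fusion of autophagosomes with lysosomes, rose from 36.1, 46.3 and 49.3 CPM to 48.5, 55.9 and 63.9 CPM (1.26-fold, 1.18 to 1.34, edgeR adjusted p = 5.32e-05). Its ranges touched at 48.5 to 49.3 CPM. A pseudogene of PLEKHM1 is also in the annotation, so reads may have been divided between them. ATG2A and ATG2B, lipid transfer proteins of the growing autophagosome, rose 1.20- and 1.19-fold, ULK1, the kinase that starts autophagy, 1.19-fold and SQSTM1, a cargo receptor, 1.12-fold. ATG2B, ULK1 and SQSTM1 did not pass without replicates 4 and 5.

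STX3, a syntaxin that docks vesicles at the plasma membrane, was the only member among 27 syntaxins and partner SNAREs to pass. That is 3.7% of the list, against 1.65% of all genes tested. STX3 lies on chromosome 11 (hg19, 59480929 to 59573354) and measured 44.5, 51.6 and 58.0 CPM without and 61.2, 64.7 and 75.4 CPM with LCL521. The ranges were separate (fold change 1.31, 1.22 to 1.40, edgeR adjusted p = 2.18e-05). Genes whose libraries did not overlap between conditions were 13 of the 14151 tested (0.0919%). Called genes among them were 9 higher and 0 lower, and INSIG1, MSMO1, RRAGC and STX3 were of this kind.

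**Figure D3:**
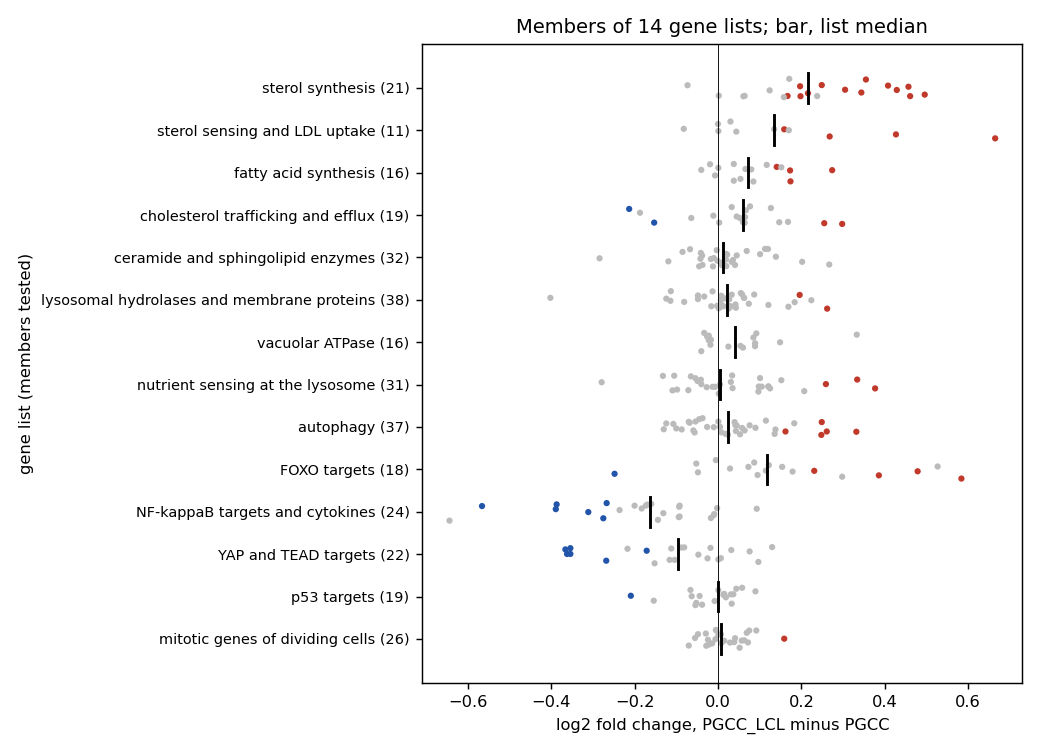
Log2 fold change of each tested member, PGCC_LCL minus PGCC, in 14 gene lists, with a black bar at the list median. Red and blue points passed the threshold as higher and lower. Sterol synthesis lies to the right (median 0.216) and NF-kappaB targets to the left (median -0.164) of 0, and most other medians are within 0.14 of it.

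Genes that FOXO transcription factors are known to induce rose in 4 of 18 members and fell in 1, with a median of 0.118. Calls made up 27.8% of the list, against 1.65% of all genes tested. KLHL24, a ubiquitin ligase adaptor, had 9.13, 13.8 and 22.2 CPM in PGCC and 12.9, 16.8 and 37.8 CPM in PGCC_LCL. The conditions overlapped, and within pairs the rise went from 0.15 to 1.02 on the log2 scale (fitted log2 fold change 0.58, 0.41 to 0.76, edgeR adjusted p = 0.000293). KLHL24 did not pass without replicates 4 and 5, where the edgeR adjusted p was 0.0511. FBXO32, a ubiquitin ligase of muscle wasting, rose 1.39-fold, CCNG2, a cyclin of resting cells, 1.31-fold and BCL6, a transcriptional repressor, 1.17-fold. TXNIP, which restrains glucose uptake, fell to 0.842 of its PGCC level.

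HMOX1, which degrades heme, had the second smallest p of the genes named here. It measured 44.04, 56.5 and 71.3 CPM in PGCC and 65.4, 72.5 and 99.1 CPM in PGCC_LCL, and the ranges overlapped while all pairs rose. The fold change was 1.40 (1.30 to 1.49, edgeR adjusted p = 3.12e-06). HMOX1 was the only call among 25 genes of the NRF2 and heme response (4.0%, against 1.65% of all genes tested), whose median was -0.004. GDF15, a stress-induced cytokine, was in the same way the only call among 33 genes of the ATF4 amino acid response (3.03%, 1.24-fold, list median -0.013). Of 25 chaperone and unfolded protein response genes EDEM1, which directs misfolded glycoproteins to degradation, passed alone at 1.13-fold, and not without replicates 4 and 5. NDRG1, a stress and hypoxia gene, and PFKFB4, a regulator of glycolysis, rose 1.20- and 1.27-fold among 26 genes of hypoxia and glycolysis. PFKFB4 was higher in 4 of 6 pairs and did not pass without replicates 4 and 5.

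Other large rises belonged to none of the lists. ITPKB, an inositol trisphosphate kinase, rose 1.33-fold, and UAP1L1 1.32-fold. EN1, a homeobox transcription factor, rose 1.29-fold, by 0.29 to 0.47 on the log2 scale in the 6 pairs. TCP11L2 (1.42-fold), CALCRL, the receptor for adrenomedullin and CGRP (1.39-fold), and CREBRF (1.31-fold) were expressed at under 14 CPM. These 3 genes did not pass without replicates 4 and 5.

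Of 24 tested NF-kappaB targets and cytokines, 6 were lower with LCL521 and 0 higher, 23 had a negative log2 fold change, and the list median was -0.164. Over all genes tested, 0.572% were called lower, and 7132 of 14151 had a negative log2 fold change. CCL20, a chemokine for cells that carry CCR6, had 2.28, 17.3 and 28.6 CPM in PGCC and 1.93, 11.2 and 21.3 CPM in PGCC_LCL. Levels differed far more between runs than between conditions, and every pair fell (fold change 0.675, 0.594 to 0.768, edgeR adjusted p = 0.000684). IL8, a neutrophil chemokine, had 42.5, 300.3 and 538.5 CPM without and 31.5, 229.6 and 493.7 CPM with the drug. Here too the ranges overlapped almost wholly while all 6 pairs fell, by 0.13 to 0.59 on the log2 scale (fold change 0.763, 0.715 to 0.816, edgeR adjusted p = 2.18e-05). The lowest levels of CCL20, IL8 and NFKBIA were in replicates 4 and 5 of both conditions.

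NFKBIA, the NF-kappaB inhibitor that is its own target, fell to 0.826 and IL1B, the interleukin-1 beta gene, to 0.831 of the PGCC level, both in 6 of 6 pairs. CXCL3, another neutrophil chemokine, fell to 0.765, and replicate 1 stood apart in it with a difference of -0.86. CXCL3 did not pass without replicates 4 and 5. BIRC3, an inhibitor of apoptosis, was lower in 4 of 6 pairs. Its mean difference was -0.40 on the log2 scale in replicates 1, 2, 3 and 6 and 0.09 in replicates 4 and 5. Without replicates 4 and 5 the list had 8 calls, all lower, and a median of -0.246.

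Targets of YAP and TEAD fell in 6 of 22 members and rose in 0, with a median of -0.096. The 6 are 27.3% of the list, against 0.572% of all genes tested called lower. CTGF, a secreted matrix-associated growth regulator, had 63.1, 164.1 and 269.8 CPM in PGCC and 44.9, 124.9 and 208.5 CPM in PGCC_LCL. The spread between runs covered the difference, but within pairs it fell by 0.18 to 0.53 on the log2 scale (fold change 0.778, 0.733 to 0.826, edgeR adjusted p = 1.87e-05). CYR61, of the same family, fell to 0.782, AMOTL2, an angiomotin that feeds back on YAP, to 0.776 and AJUBA, a LIM protein of adhesion sites, to 0.831. TGFB2, a TGF-beta ligand, fell to 0.782 and IGFBP3, a binder of insulin-like growth factors, to 0.888. All 6 also passed without replicates 4 and 5. The 20 tested SRF and actin genes had 0 calls in edgeR's test, with FHL1 closest at a log2 fold change of -0.13 (edgeR adjusted p = 0.0646).

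Other named genes fell as well. PTX3, a pattern recognition protein, had 12.3, 30.9 and 44.98 CPM in PGCC and 7.46, 22.2 and 30.5 CPM in PGCC_LCL, an overlap in levels with a fall in all pairs (fold change 0.711, 0.649 to 0.779, edgeR adjusted p = 5.32e-05). CLDN1, a tight junction protein, fell to 0.794 and KRT34, a keratin, to 0.746. The GTPase activating proteins DLC1 and ARHGAP28 fell to 0.786 and 0.787. MSRB2, a mitochondrial methionine sulfoxide reductase, fell to 0.764 and PROSER2 to 0.794, and neither passed without replicates 4 and 5.

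**Figure D4:**
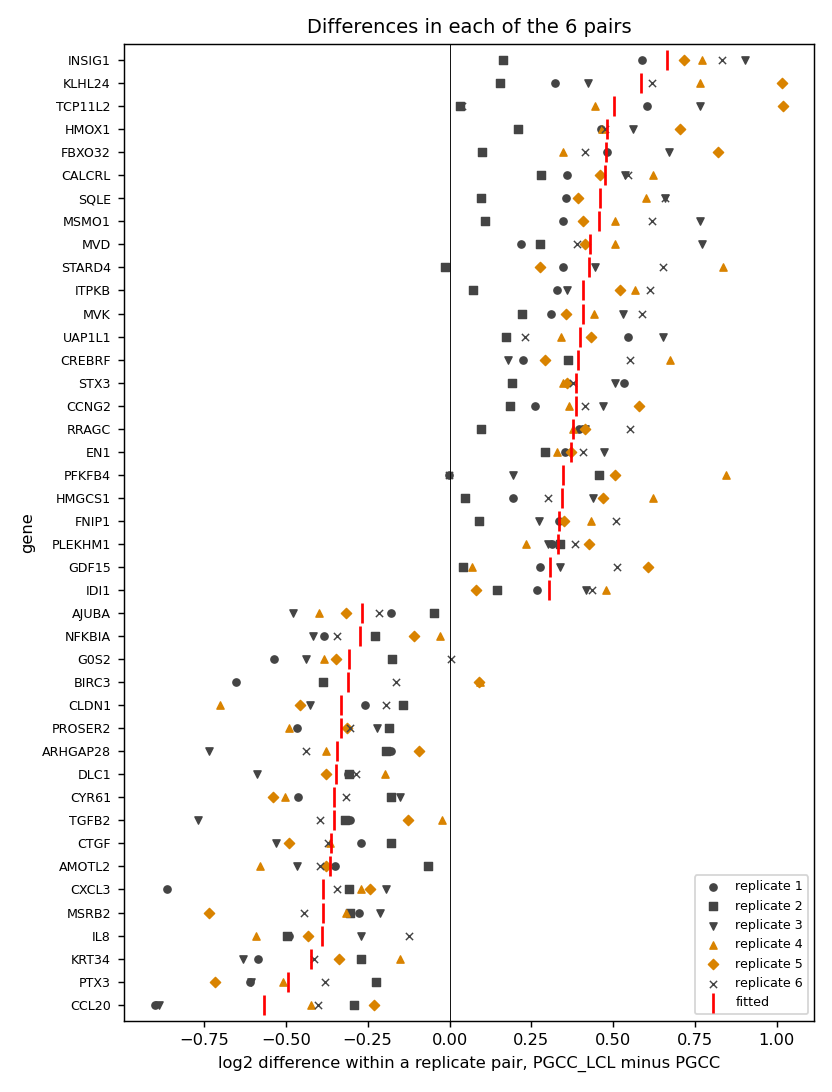
Log2 difference, PGCC_LCL minus PGCC, within each of the 6 replicate pairs for 42 of the named genes, the 24 with the highest and the 18 with the lowest fitted log2 fold change (red ticks), with replicates 4 and 5 in orange. Replicate 2 gives the smallest rise for many of the upper genes, such as INSIG1 and SQLE, and BIRC3 is above 0 in replicates 4 and 5.

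Several other programmes gave few or no calls in edgeR's test, in which 1.65% of all genes tested passed. Of 26 mitotic genes CENPF, a kinetochore protein, rose 1.12-fold and did not pass after length correction or without replicates 4 and 5, and the list median was 0.008. Of 36 DNA replication genes 0 passed, with RRM2 closest at a log2 fold change of -0.08. Among 19 p53 targets PLK2, a polo-like kinase, fell to 0.865, and the median was 0.001. Heat shock genes had 0 calls among 20, although 19 of the 20 had negative values with a median of -0.070. The 78 cytosolic ribosomal protein genes had 0 calls, 70 negative values and a median of -0.049, which was -0.002 without replicates 4 and 5. Mitochondrially encoded genes had 0 calls among 13, 12 positive values and a median of 0.153. Without replicates 4 and 5 that median was 0.230 and 1 of them passed, MT-ATP6, and after length correction 1 passed, MT-CYB. KLF6, a zinc finger factor, rose 1.17-fold among 32 immediate early and ERK feedback genes and did not pass without replicates 4 and 5. Of 22 genes of lipid droplets and fatty acid oxidation G0S2, an inhibitor of the lipase ATGL, fell to 0.808. The 3 tested metallothionein and zinc export genes, the 3 line markers and the 3 markers of other cell types had 0 calls in edgeR's test.

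The same drug in parental cells gives a comparison that shares no library with the giant cells, although both were made in the same runs. There 115 of 13277 genes passed (0.866%), 69 higher and 46 lower, with the same test and block. These calls rested on the replicates used: 3 genes passed without replicates 4 and 5 and 0 passed in edgeR's test without the block, where 71 had an unadjusted p under 0.05, and the shared calls and list counts given next come from the fit of all 6 pairs. Of the genes higher in giant cells, 148 of the 152 tested in parental cells had a positive log2 fold change there, and 45 also passed. Of the genes lower in giant cells, 81 of 81 were negative in parental cells and 21 passed, and 0 called genes passed in the opposite direction. Over all 13091 genes tested in both, 65.95% had the same sign. INSIG1 had a log2 fold change of 0.76 in parental cells and 0.67 in giant cells, RRAGC 0.38 in each, and CTGF -0.76 and -0.36. Sterol synthesis had 10 calls in parental cells with a median of 0.226, and YAP and TEAD targets had 5, all lower, with a median of -0.082. NF-kappaB targets had 0 calls there and a median of -0.099.

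**Figure D5:**
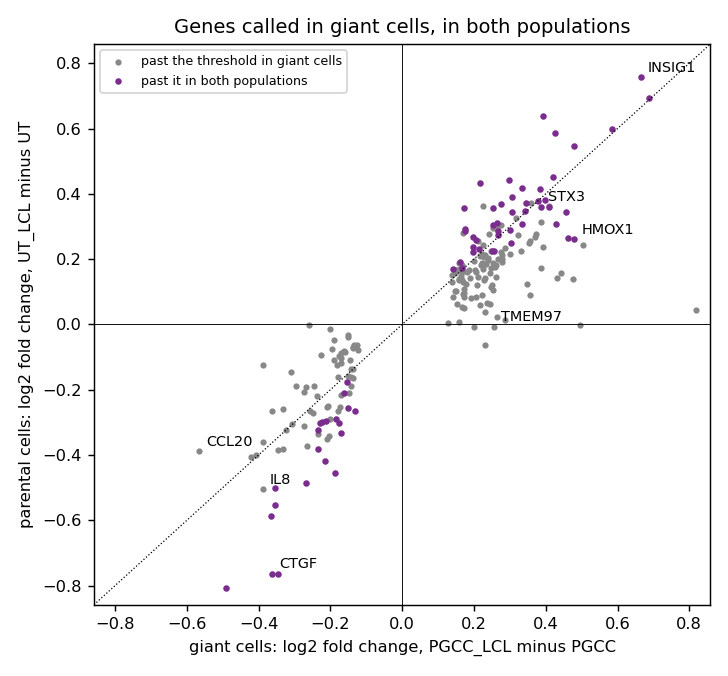
Log2 fold change with LCL521 in giant cells (x axis) and in parental cells (y axis) for the genes called in giant cells and tested in parental cells, with the line of equal change dotted. Purple points passed in both populations (45 higher and 21 lower), grey points in giant cells, and most points lie in the 2 quadrants of equal sign.

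Whether the response differed between the populations was tested as an interaction over the 24 libraries with the block within each population. Of 14555 genes, 0 passed in edgeR's test and 561 had an unadjusted p under 0.05. IFIT2, an interferon-induced gene, had the smallest p (9.91e-05, edgeR adjusted p = 0.739): its log2 fold change was 0.01 in giant cells and 0.33 in parental cells, a difference of -0.32 (95% interval -0.46 to -0.18). RGS4, a regulator of G protein signalling, had 0.12 and 0.49, a difference of -0.36 (-0.54 to -0.18). SCN9A, a sodium channel gene at 0.676 to 2.40 CPM in giant cells, was not tested in parental cells alone and had a difference of -2.11 (-3.13 to -1.08). Of the 67 named genes called in giant cells, 7 had an interval of the difference that left out 0, with no adjustment for the number of genes, and in edgeR's test the adjusted p of each was 1. The 7 differences, giant minus parental cells, were all above 0. They were 0.43 (0.12 to 0.73) for DLC1, 0.40 (0.14 to 0.67) for CTGF, 0.33 (0.01 to 0.64) for PTX3, 0.27 (0.11 to 0.43) for TMEM97, 0.23 (0.07 to 0.38) for HMOX1, 0.22 (0.01 to 0.43) for AJUBA and 0.20 (0.02 to 0.38) for SQLE. DLC1, CTGF, PTX3 and AJUBA had negative log2 fold changes in both populations, and the fitted fall was smaller in giant cells. HMOX1 and SQLE rose in both, with a larger fitted rise in giant cells. TMEM97 had 0.255 in giant cells and -0.007 in parental cells. The other 60 intervals included 0. For RRAGC the difference was 0.00 (-0.19 to 0.19), for STX3 0.03 (-0.12 to 0.18), for INSIG1 -0.09 (-0.32 to 0.14), for NFKBIA -0.06 (-0.22 to 0.11) and for CCL20 -0.14 (-0.59 to 0.31). The intervals leave room for differences as large as many of the changes themselves.

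Gene length moved with the calls. Higher genes had a median length of 4687 bases, lower genes 2810 and all genes tested 3203. Across genes, which are not independent, the rank correlation of length with the log2 difference of a pair was between -0.08 and 0.29, the highest in replicate 4. With each library's trend on length removed, 260 genes passed, 150 higher and 110 lower, 207 of which were among the 234, all with the same direction.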

How the data were processed

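RNA of 24 PPC1 libraries was sequenced by a contractor. Per the submitters' processing notes and the study's methods, reads were aligned to hg19 with STAR and counted on genes with HTSeq, and the authors deposited raw read counts for 48162 genes. The annotation release and strand setting are not given in the sources used here, so overlapping, antisense and duplicated genes are uncertain. No per-sample column was left unused.

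Tools were DESeq2 1.42.0, limma 3.58.1 and edgeR 4.0.16 in R 4.3.3. Genes were filtered with filterByExpr (minimum count 10, minimum total 15), scaled by TMM and tested with edgeR's quasi-likelihood test, with the replicate number as a block, on the 12 giant-cell libraries. Calls were made at 0.05 after Benjamini-Hochberg adjustment, and intervals are at 95%. Parental cells were fitted in the same way. The number marks a shared run in the series' design, and same-numbered libraries correlated in their deviations from the condition means in each of 6 pairs (0.402 to 0.648). Each PGCC library correlated less with PGCC_LCL libraries of other numbers, at most 0.124 to 0.559. These largest other values were 0.512 for replicate 4 and 0.559 for replicate 5, above the same-number values of replicates 2 (0.472) and 3 (0.402). Libraries of a condition differed by more than counting error (chi-square per degree of freedom 3.52 to 27.8). Scripts were tested on simulated data.

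Named genes were INSIG1, RRAGC, STX3 and ASAH1, the 15 largest rises and falls with at least 2 log2 CPM and 1 direction in all pairs, the 10 smallest p-values, up to 6 called members (or the smallest p) of each of 30 gene lists, and the 3 smallest p-values of the interaction. Members and lists were chosen with earlier results of these data known. Some genes taken in by this rule are not reported here. The floor of 3 counts covers counting error only. Intervals of fold changes come from edgeR's fit, which also takes in spread beyond counting error. Alternatives were other tools, scalings, filters and blocks, a length correction, and left-out replicates.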

Additional observations from a re-analysis of the deposited data

Results flagged for a closer look

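In 2 of 81 named genes (2.47%) a single pair stood apart from the other 5 by Dixon's criterion, which chance meets in about 1 of 20 groups. CXCL3 had a paired log2 difference of -0.864 in replicate 1, against values between -0.34 and -0.20 in the other pairs. VIM, which did not pass the threshold, had -0.257 in replicate 4. The part of either library in these values was not tested.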

How the results depend on the processing

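The replicate block decided most calls. Without the block 1 gene passed in giant cells with edgeR and 6 with DESeq2, and 1 passed when all 24 libraries shared a single block. With that shared block 0 of the 67 called named genes passed, so INSIG1 did not pass either. All 24 libraries with a block within each population gave 96. No filter beyond 1 count gave 376 genes, with 30969 tested, and leaving out replicates 4 and 5 gave 129, with fewer samples. Leaving out each replicate in turn gave 136 to 339. The other settings stayed within 1.5 times of 234: DESeq2 with the block gave 193, limma-voom 239, library totals 194 and the length correction 260. Leaving out replicates 4 and 5 together with the length correction, chosen after seeing the data, gave 169. In parental cells 115 genes fell to 0 without the block (71 with an unadjusted p under 0.05) and to 3 without replicates 4 and 5. The interaction gave 0 genes in each of its 4 settings, with 60 to 760 at an unadjusted p under 0.05. All 67 called named genes kept their direction in the 20 alternatives, and without the block only INSIG1 passed with edgeR. The log2 fold change of IFIT2, not called, ranged from -0.016 without replicate 1 to 0.035 without replicate 2. The causes were not tested. The smallest change called was 0.124 on the log2 scale. What size could be called depends on the level and spread of each gene and was not tested.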

Other observations

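Some further genes that passed in giant cells were chosen after their values were seen. They were picked from the called genes, belong to no list used here, and say nothing of other genes with the same role. RIOK1, PNO1, RRP15, NOP16, LYAR, EBNA1BP2 and NOL11, each known from the nucleolus or from ribosome assembly, had log2 fold changes of -0.19, -0.18, -0.17, -0.17, -0.16, -0.14 and -0.14 in that order. TOMM7 (-0.16), COX6C (-0.15), CYCS (-0.14), NDUFS5 (-0.14) and COX7C (-0.12) encode mitochondrial proteins. All 12 were lower in 6 of 6 pairs. None of these 12 genes passed without replicates 4 and 5, and NOP16, EBNA1BP2, COX7C and NDUFS5 did not pass after the length correction.

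PLAT (-0.18) and PLAU (-0.16), the plasminogen activators, MMP13 (-0.20), a collagenase, and TFPI2 (-0.21), a protease inhibitor, were lower and also passed without replicates 4 and 5. BMF, a pro-apoptotic BH3-only protein, had a log2 fold change of 0.69 in giant cells and 0.69 in parental cells, passed in both, and did not pass in giant cells without replicates 4 and 5. MNT (0.25) and MXD1 (0.23), antagonists of MYC, HBP1 (0.27), a transcriptional repressor, and CDKN2B (0.23), an inhibitor of cyclin-dependent kinases, were higher. CLCN6 (0.34) and CLCN7 (0.17), chloride transporters of endosomes and lysosomes, were higher too. Of these 6 genes CDKN2B passed without replicates 4 and 5.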
